A study of Mus musculus with 6 samples.

Results

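Endothelial cells line blood and lymphatic vessels, and 44 genes that mark them were followed in uterine horns of C57BL6J mice. The genes were taken from a list of blood and lymphatic endothelial genes, and each was represented by the probe set, annotated to that symbol alone, with the highest mean over the 6 arrays. All 44 were measured, among 18193 genes in all. The SF1 group (Pgrcre/+ SF1LsL/+, labelled SF-1 transgenic) had 3 arrays and the control group (SF1LsL/+) had 3, each holding total RNA pooled from 2 uteri. Both groups carried the SF1LsL/+ allele, and the SF1 group alone carried the Cre allele at Pgr, the progesterone receptor locus, so expression of the transgene was directed to cells that use that locus. SF1, a nuclear receptor of steroidogenic tissues, is the product of Nr5a1. Horns were taken, without the cervix, 2 weeks after surgery. The sources used here state neither its kind nor the age of the mice.

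Vessels of the uterus grow and regress with the cycle and with pregnancy, which is unusual for an adult organ. Blood endothelium keeps its identity through ETS factors such as ERG and FLI1 and through the SOXF factors SOX7, SOX17 and SOX18, which act on genes for junctions, receptors and surface mucins. Lymphatic endothelium branches off under the transcription factor PROX1. RNA of whole horns holds endothelium together with muscle, stroma, epithelium and blood cells, so fewer endothelial cells and less RNA per endothelial cell cannot be told apart in these values.

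Most genes of blood endothelium were lower in SF1 horns, while the lymphatic genes were not called. Of the 44 genes, 24 fell, 1 rose and 19 were not called at an adjusted p under 0.05 (limma on log2 of intensity + 16, Benjamini-Hochberg over all probe sets). Over all 18193 genes, 8.11% were called lower and 8.45% higher. The median log2 change of the 44 genes was -0.37. Their quartiles were -0.62 and -0.09, against -0.18 and 0.10 for all genes, whose median was -0.05. The 3 SF1 arrays read below all 3 control arrays for 28 of the 44 genes and above them for 1, where the shares over all genes were 23.7% and 16.3%.

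**Figure D1:**
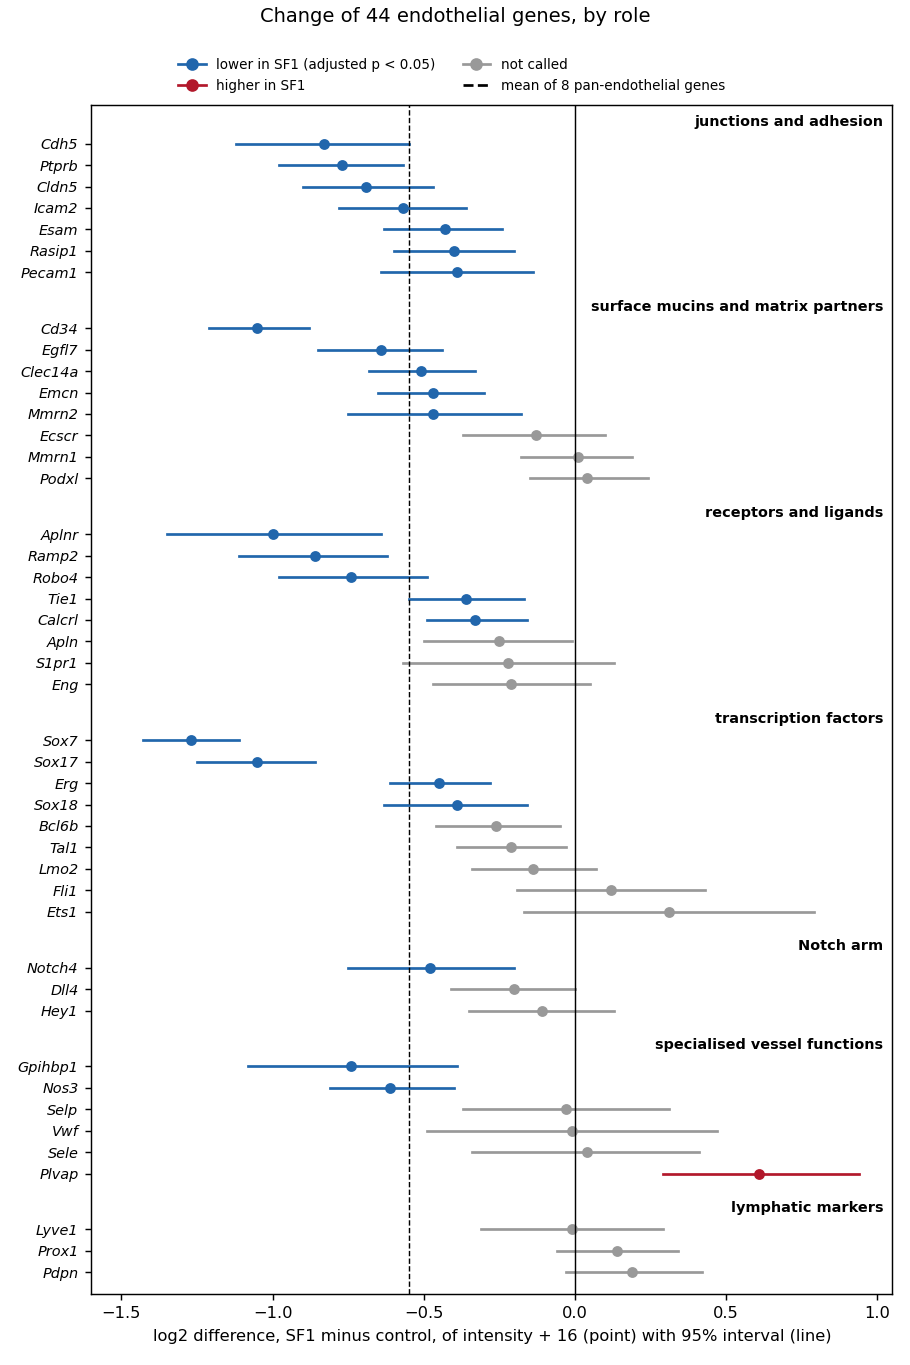
The log2 difference between SF1 and control (horizontal axis, intensity + 16) is drawn for the 44 endothelial genes with its 95% interval, in 7 role groups, coloured by the call. The dashed line marks the mean change of 8 pan-endothelial genes, -0.55, and only Plvap is called on the higher side.

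Array quality and labels were looked at first. Median intensities lay between 149.9 and 159.6 on SF1 arrays and between 159 and 162.2 on control arrays. RNA quality was read from the arrays' controls for beta-actin, whose signal at the 3' end over that at the 5' end lay between 2.116 and 2.336 in SF1 and between 2.385 and 2.58 in control, with no overlap. The same ratio of the Gapdh controls lay between 1.469 and 1.66 in SF1 and between 1.527 and 1.697 in control, with overlap. The part of these ratios in the results was not tested. Pgr read 1932, 1719 and 2027 in SF1, against 4899, 4747 and 4744 in control (log2 change -1.34, limma adjusted p = 3.23e-05). Nr5a1 read 151.3, 151.2 and 151.45 in SF1, against 138.8, 171.5 and 144.8 in control (limma adjusted p = 0.992), which does not check the labels, because it is unknown whether the transgene holds the probed sequence. Cre, the Pgr allele that carries it and SF1 differ together between the groups and cannot be told apart.

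Genes of endothelial junctions and adhesion fell as a whole group, with 7 of 7 called lower and log2 changes from -0.83 to -0.39. Cdh5 encodes VE-cadherin, the cadherin of endothelial adherens junctions. It read 579, 489 and 411 in SF1, against 829, 960.35 and 860.5 in control. Every SF1 array thus lay below every control array, and the log2 change was -0.83 ± 0.12 (SE; limma adjusted p = 0.003). Ptprb, the phosphatase VE-PTP that binds VE-cadherin, read 604, 529.8 and 539 in SF1, against 906, 1049.6 and 938 in control. Its level in SF1 was 57.8% of that in control (log2 change -0.77 ± 0.09, SE; limma adjusted p = 0.000799). Cldn5, the tight junction claudin of vessels, read 743, 697 and 802 in SF1, against 1111, 1199.8 and 1328 in control (-0.69 ± 0.09, SE; limma adjusted p = 0.00192).

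The other junction genes had smaller changes. Icam2, an adhesion molecule for leukocytes, changed by -0.57, Esam, an adhesion molecule of tight junctions, by -0.43, and Rasip1, a RAS-interacting protein needed for vessel lumens, by -0.40 on the log2 scale. Pecam1 (CD31), the marker most used to stain vessels, read 299, 341 and 255 in SF1, against 383, 379.6 and 421 in control. Its groups did not overlap, but its log2 change of -0.39 stood near the threshold (limma adjusted p = 0.0473) and was no longer called when 1 array was left out in 5 of 6 cases, all but that of SF1 replicate 2 (highest adjusted p = 0.123). Leaving out SF1 replicate 1, SF1 replicate 3 or control replicate 1 ended the call of Rasip1 (adjusted p up to 0.0637).

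Of 8 genes for surface mucins and their matrix partners, 5 fell and 3 were not called. Cd34, a sialomucin of vessel endothelium that stromal fibroblasts and blood progenitors also carry, read 761, 712 and 737 in SF1, against 1523, 1536 and 1549.8 in control. The spread within each group was small, and the level in SF1 was 47.9% of that in control (log2 change -1.05 ± 0.07, SE; limma adjusted p = 4.98e-05). Egfl7, a secreted protein of endothelial matrix, read 828, 925 and 781 in SF1, against 1282, 1303 and 1394 in control (-0.64 ± 0.09, SE; limma adjusted p = 0.00188). Lower calls came from 3 further probe sets of Egfl7 as well.

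Clec14a, a lectin of tumour and developing vessels, read 219, 209 and 202 in SF1, against 301, 293 and 320.2 in control (-0.51 ± 0.08, SE; limma adjusted p = 0.00321). Mmrn2, the matrix ligand of CLEC14A, changed by -0.47, as did Emcn, the endomucin of veins and capillaries. The call of Mmrn2 on its brightest probe set ended in 5 of 6 fits with an array left out (all but that without control replicate 2, highest adjusted p = 0.118), while its 3 other probe sets, at -0.45, -0.48 and -0.61, were all called lower. The other 3 genes did not pass the test. Podxl, a sialomucin related to CD34 that epithelium and mesothelium also make, differed by 0.04 on the log2 scale (95% interval -0.15 to 0.24). Ecscr, a regulator of endothelial migration, stood at -0.13 (-0.37 to 0.10). Mmrn1, a matrix and platelet protein that lymphatic endothelium makes too, stood at 0.01 (-0.18 to 0.19).

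Of the 8 receptors and ligands, 5 fell and 3 were not called. Aplnr, the apelin receptor of veins and sprouting vessels, read 768, 725 and 494 in SF1, against 1386, 1205 and 1362 in control. SF1 replicate 3 was the lowest array, and the log2 change was -1.0 ± 0.16 (SE; limma adjusted p = 0.00369). A second probe set of Aplnr also fell, by 0.77 on the log2 scale. Apln, the ligand apelin, averaged 238 ± 33.3 in SF1 and 285 ± 14.6 in control (SD, n = 3 each), a log2 difference of -0.25 that was not called (limma adjusted p = 0.155).

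RAMP2 and CALCRL together form the adrenomedullin receptor. Ramp2 read 797, 879 and 983 in SF1, against 1596, 1803 and 1474 in control (log2 change -0.86 ± 0.11, SE; limma adjusted p = 0.00112). Calcrl changed by -0.33 (limma adjusted p = 0.0198), which was not called in 5 of 6 fits with an array left out, all but that without control replicate 2 (highest adjusted p = 0.0679). The difference between the 2 subunits was not tested. Robo4, a roundabout receptor that steadies vessel barriers, read 264, 211 and 250.2 in SF1, against 400.05, 381 and 458 in control (-0.74 ± 0.11, SE; limma adjusted p = 0.00249). Tie1, the orphan partner of the angiopoietin receptor, changed by -0.36 (limma adjusted p = 0.0246), again not called in 5 such fits, all but that without control replicate 2 (highest adjusted p = 0.0773). Eng, the TGF-beta co-receptor endoglin, stood at -0.21 (95% interval -0.47 to 0.05), and S1pr1, the receptor for sphingosine-1-phosphate, at -0.22 (-0.57 to 0.13).

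**Figure D2:**
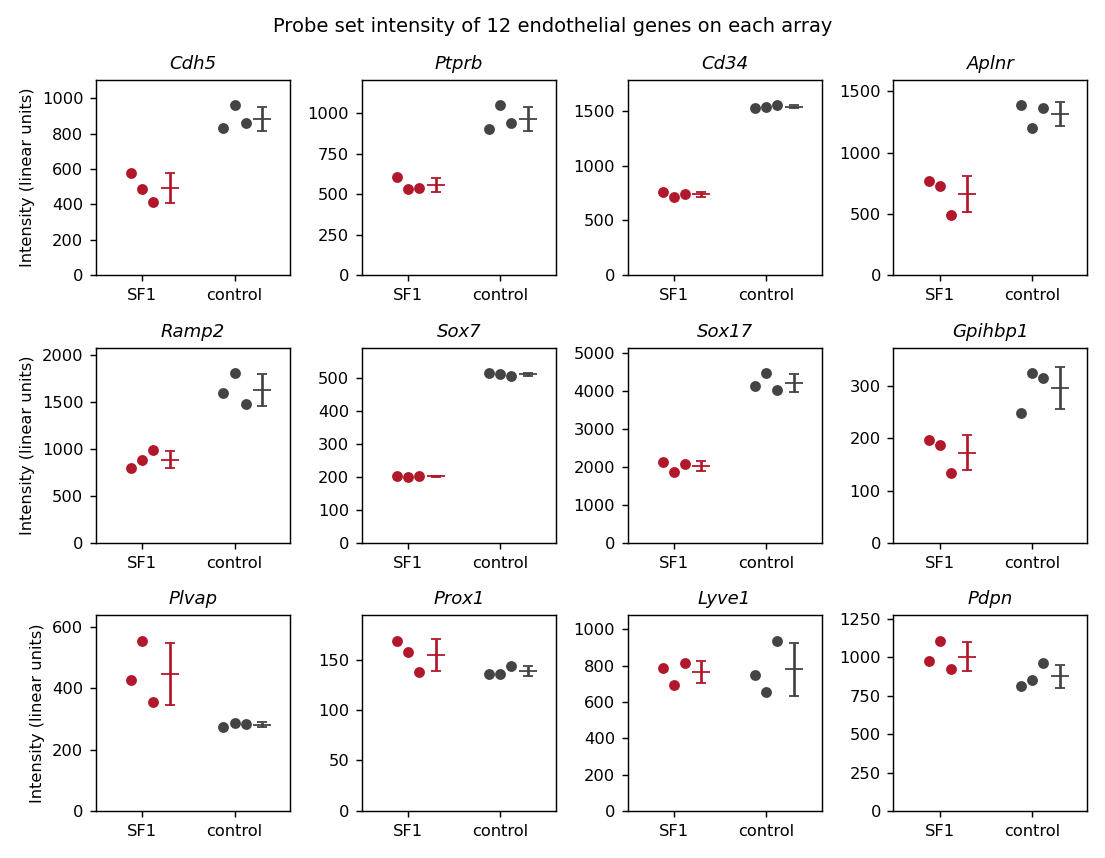
Probe set intensity (vertical axis, linear units from 0) is drawn for 12 endothelial genes on the SF1 arrays (left, red) and control arrays (right, grey), with the mean and SD of 3 arrays beside the points. Sox7, Sox17 and Cd34 separate widely with little spread, Plvap is higher in SF1, and Prox1, Lyve1 and Pdpn overlap between the groups.

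Of 9 transcription factors, 4 fell and 5 were not called. The log2 change was below 0 for 7 of the 9, as it was for 11024 of all 18193 genes. The fall of Sox7 was the deepest of all 44 genes. It read 202, 201 and 204 in SF1, against 515, 511 and 507 in control, so that SF1 held 39.6% of the control level (log2 change -1.27 ± 0.07, SE; limma adjusted p = 1.72e-05). A second, dimmer probe set of Sox7 did not follow, at 53.3 in SF1 and 56.3 in control (limma adjusted p = 0.702). Sox17, which uterine epithelium also expresses, read 2130.5, 1870.2 and 2074 in SF1, against 4147, 4481 and 4022 in control (-1.05 ± 0.09, SE; limma adjusted p = 0.000112). A second probe set of Sox17 fell by 1.25 on the log2 scale.

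The remaining SOXF gene, Sox18, changed by -0.39 (limma adjusted p = 0.0396). It was not called in 5 of 6 fits with an array left out, all but that without SF1 replicate 2 (highest adjusted p = 0.122). Erg read 158, 153 and 162 in SF1, against 222, 219 and 219.5 in control (-0.45 ± 0.07, SE; limma adjusted p = 0.00426), and a dimmer probe set of Erg was not called (-0.04). Fli1 and Ets1, ETS factors that leukocytes also express, stood at 0.12 (95% interval -0.19 to 0.43) and 0.31 (-0.17 to 0.79). Ets1 read 1414, 1350.02 and 1357 in SF1, against 1430.1, 735 and 1279 in control. Control replicate 2 alone was low, and another bright probe set of Ets1 averaged 922 in SF1 and 904 in control. Tal1 (-0.21, 95% interval -0.39 to -0.03) and Lmo2 (-0.14, -0.34 to 0.07), blood and endothelial factors that act in 1 complex, were not called. The endothelial repressor gene Bcl6b (-0.26, -0.46 to -0.05) was not called either. All SF1 arrays read below all control arrays for Tal1 and Bcl6b, as they did for 23.7% of all genes.

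ETS factors bind a GGAA core, and RefSeq promoters (GRCm38.p6, 250 bases before to 50 after a start) were at hand for 20 of the 44 genes, as 26 promoters. The search covered the whole of each 300-base window. In the 26 promoters, 4 AGGAAG matches and 0 of the other words reached past the start. On either strand, CGGAAG stood in 1 of the 26 promoters (3.85%), against 16.9% of all 32851 promoters. AGGAAG, a search added after that result, stood in 14 of the 26 (53.8%), against 35.4% of all promoters. Counted by gene, in any of its promoters, it was found for 9 of the 11 that fell and for 4 of the 9 that did not. The 35.4% counts promoters, so the counts by gene cannot be set against it, and the split was not tested. The SOX word AACAAT stood in 4 of the 26 promoters (15.4%), against 10.7% of all, and the GATA word AGATAA in 2 (7.69%), against 11.2%. AAGGTCA, the core bound by SF1 and its relatives, stood in 1 of the 26 (3.85%), that of Emcn, against 4.72% of all promoters. Such matches describe letters in a window and show no binding.

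The 250 bases before the start are shown for 4 genes that fell, 2 surface mucins and 2 receptors, because they hold these words in different numbers and places. They were picked among genes with matches. Cldn5 and Clec14a also fell and hold none of these words in the same bases. Capitals mark matches to the 5 words on either strand, and no 2 matches overlap. In Cd34 (chr1:194938571-194938820, plus strand) the capitals are AGGAAG read on the opposite strand, beginning 142 bases before the start. In Emcn (chr3:137340828-137341077, plus strand) they are, in order, AGGAAG and AAGGTCA on the opposite strand, then AGGAAG and AACAAT, at 174, 153, 93 and 50 bases. In Robo4 (chr9:37401722-37401971, plus strand) they are AGGAAG at 49 bases, and in Tie1 (chr4:118489850-118490099, minus strand) CGGAAG at 232 bases and AGGAAG on the opposite strand at 219.
Cd34: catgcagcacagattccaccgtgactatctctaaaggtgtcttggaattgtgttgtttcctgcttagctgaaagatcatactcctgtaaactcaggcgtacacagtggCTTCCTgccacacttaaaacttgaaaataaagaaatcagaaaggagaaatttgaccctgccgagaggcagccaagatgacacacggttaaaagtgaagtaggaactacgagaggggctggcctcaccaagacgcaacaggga
Emcn: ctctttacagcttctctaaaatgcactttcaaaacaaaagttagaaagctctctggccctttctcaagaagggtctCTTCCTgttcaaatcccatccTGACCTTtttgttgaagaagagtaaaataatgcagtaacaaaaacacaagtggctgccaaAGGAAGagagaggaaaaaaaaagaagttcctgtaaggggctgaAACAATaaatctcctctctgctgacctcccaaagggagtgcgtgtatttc
Robo4: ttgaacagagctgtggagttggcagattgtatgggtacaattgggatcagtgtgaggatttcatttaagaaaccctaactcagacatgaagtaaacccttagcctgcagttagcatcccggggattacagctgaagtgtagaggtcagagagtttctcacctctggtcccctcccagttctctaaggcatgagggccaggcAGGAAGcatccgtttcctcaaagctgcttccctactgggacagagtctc
Tie1: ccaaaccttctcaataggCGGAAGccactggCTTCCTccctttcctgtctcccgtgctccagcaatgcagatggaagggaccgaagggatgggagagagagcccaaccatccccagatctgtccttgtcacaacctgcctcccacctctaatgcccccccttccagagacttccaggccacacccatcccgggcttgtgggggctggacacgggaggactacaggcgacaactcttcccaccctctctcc

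Of the 3 genes of the Notch arm, which sets arterial identity, 1 fell. Notch4, the Notch receptor of endothelium, read 155, 153 and 125 in SF1, against 209, 237 and 177 in control (log2 change -0.48 ± 0.12, SE; limma adjusted p = 0.0334). It was not called in 5 of 6 fits with an array left out, all but that without control replicate 3 (highest adjusted p = 0.1), and its 2 other probe sets were not called. The ligand gene Dll4 (-0.20, limma adjusted p = 0.167) and the target gene Hey1 (-0.11, limma adjusted p = 0.504) were not called.

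Genes for specialised vessel functions went different ways, with 2 of 6 lower, 1 higher and 3 not called. Gpihbp1, which anchors lipoprotein lipase to capillaries, read 196, 187 and 134 in SF1, against 249.55, 325 and 315 in control (log2 change -0.74 ± 0.15, SE; limma adjusted p = 0.0132). Nos3, the endothelial nitric oxide synthase, read 208, 237 and 208 in SF1, against 312, 345 and 361 in control (-0.61 ± 0.09, SE; limma adjusted p = 0.00281). Both genes had no overlap between the groups.

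Plvap, the protein of the diaphragms that span fenestrae and caveolae of leaky vessels, was the only one of the 44 genes called higher. It read 429, 555 and 356 in SF1, against 275, 288 and 283 in control, and every SF1 array lay above every control array. The level in SF1 was 159% of that in control (log2 change 0.61 ± 0.14, SE; limma adjusted p = 0.0229), with the highest reading in SF1 replicate 2. Leaving out SF1 replicate 1, control replicate 1 or control replicate 3 ended the call (adjusted p up to 0.073), and Plvap had no second probe set. Vwf, Selp and Sele were not called. Vwf, von Willebrand factor, read 340.5, 304 and 227 in SF1, against 332, 204 and 355 in control. Selp, P-selectin of platelets and activated endothelium, stood at -0.03 (95% interval -0.37 to 0.31), and Sele, E-selectin, at 0.04 (-0.34 to 0.41). Sele was dim, with means of 61.4 in SF1 and 60 in control, below the median brightness of the array.

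None of the 3 lymphatic markers was called, and their groups overlapped. Prox1 read 169, 158 and 138 in SF1, against 136, 136 and 144 in control (log2 difference 0.14, 95% interval -0.06 to 0.34). Lyve1, a hyaluronan receptor that some macrophages also carry, read 786, 694 and 812 in SF1, against 747, 652 and 936 in control (-0.01, -0.31 to 0.29). Pdpn, podoplanin, which fibroblasts and mesothelium also express, read 975, 1107 and 927 in SF1, against 813, 854 and 961 in control (0.19, -0.03 to 0.42). Of 6 other lymphatic genes measured, among them Flt4, the VEGF-C receptor, 0 were called in either direction in this limma fit, and 0 had an unadjusted p under 0.05. Their log2 changes ran from -0.22 to 0.01. Itga9, an integrin subunit, had the change of -0.22, but 1 of its 2 other probe sets was called higher.

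The mean log2 value of 8 pan-endothelial genes (Pecam1, Cdh5, Tie1, Esam, Robo4, Clec14a, Egfl7 and Mmrn2) was subtracted from each array. They were picked from the endothelial genes followed here, and all 8 were called lower, so a gene that did not change lay above them. Distance from these 8 genes is what the fit measures, not distance from vessels in general. Their mean stood at -0.46, -0.52 and -0.65 on the SF1 arrays and at -0.04, -0.04 and 0.08 on the control arrays, relative to the control average. Of the 36 other endothelial genes, 4 fell further than these 8 genes, where 1.42% of all genes did. They were Sox7 (-0.72 relative to the 8 genes, limma adjusted p = 0.000184), Sox17 (-0.51, 0.00248), Cd34 (-0.50, 0.00162) and Aplnr (-0.45, 0.00754). Averaged over both of its probe sets, Sox7 no longer passed.

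In the same fit 18 of the 36 genes stood above the 8 pan-endothelial genes, while 85.3% of all genes did. Plvap stood farthest above (1.16 ± 0.14, SE; limma adjusted p = 2.12e-05). The 3 lymphatic markers (0.53 to 0.74), Selp, Sele and Vwf (0.51 to 0.58), and Podxl, Mmrn1 and Ecscr (0.41 to 0.59) were also among the 18. The other 14 genes, among them Icam2 (-0.03), Nos3 (-0.06), Emcn (0.08) and Erg (0.10), were not called apart from the pan-endothelial genes. Without control replicate 3 the count of 18 was 12.

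**Figure D3:**
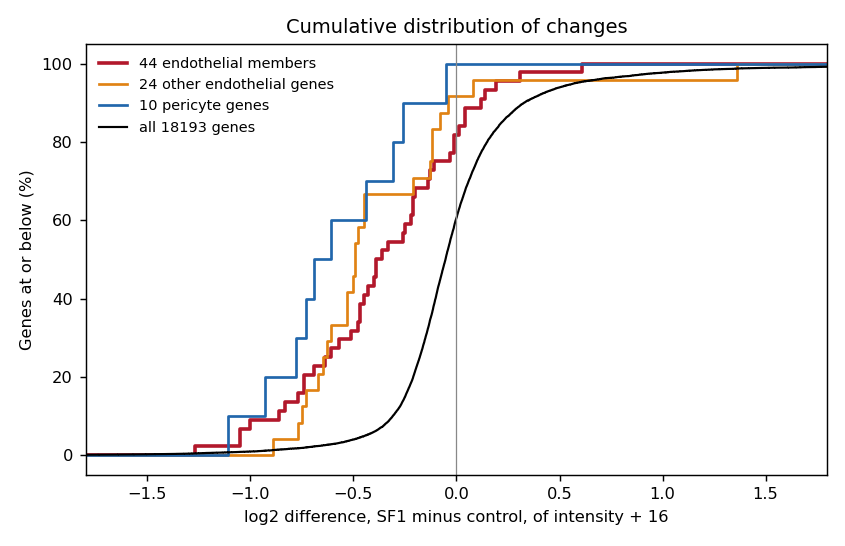
The share of genes (vertical axis, percent) at or below each log2 difference between SF1 and control (horizontal axis) is drawn for the 44 endothelial genes, 24 other endothelial genes, 10 pericyte genes and all 18193 genes. The medians lie at -0.37, -0.49, -0.65 and -0.05.

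Further genes of endothelium were mostly lower too. Of 24 further endothelial genes, 14 fell, 1 rose and 9 were not called, with a median log2 change of -0.49. Cd93, a surface receptor of endothelium, fell most, to 664 ± 70.9 in SF1, against 1239.9 ± 60.5 in control (-0.89, limma adjusted p = 0.000482). Procr, the endothelial protein C receptor, was the one that rose, at 834 ± 161 in SF1 and 312 ± 21.7 in control (SD, n = 3 each; 1.36, limma adjusted p = 0.000392). Of 14 further arterial and venous genes, 5 fell, 1 rose and 8 were not called. Nr2f2, the venous factor COUP-TFII, which uterine stroma also expresses, changed by -0.57, and Nrp2, a co-receptor of veins and lymphatics, by 0.66. With any 1 array left out, the falls numbered 2 in place of 5.

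Pericytes wrap small vessels, and most genes listed for them were lower as well. Of 10, 7 fell, 0 rose and 3 were not called, with a median log2 change of -0.65. Anpep, a peptidase of pericytes and other cells, fell most (-1.11, limma adjusted p = 0.000171), and Rgs5, a G protein regulator of pericytes, averaged 1750.2 in SF1 and 3338 in control (-0.93, limma adjusted p = 0.000197). Smooth muscle genes, which include vessel wall and myometrium, had 0 of 8 called in either direction by limma and a median of 0.07. Of these 8, 2 had an unadjusted p under 0.05.

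Genes of other cells that share endothelial markers were counted in the same fit. Of 9 leukocyte genes measured, 8 rose and 0 fell, with a summed intensity from 8381 to 12598 in SF1 and from 4186 to 5757 in control, highest in SF1 replicate 2. The log2 changes of the 9 ran from 0.34 for Cd3e to 2.06 for Cd3g, which both encode T cell receptor subunits. Fli1, Ets1, Lmo2, Tal1 and Cd34 are also expressed by blood cells. The part of leukocytes in their values, and in those of the other endothelial genes, was not tested. Of 7 stroma genes 4 fell and 0 rose, with a summed intensity from 36068 to 39095 in SF1 and from 42257 to 45202 in control. Twist2, a stromal transcription factor, fell most (-1.54). The part of stroma in the values of Cd34, Pdpn and the pericyte genes was not tested. Of 5 epithelial genes 2 rose and 1 fell, with a summed intensity from 15660.5 to 17238 in SF1 and from 13826 to 14904 in control, and the part of epithelium in the values of Sox17 and Podxl was not tested.

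Platelet, red cell and mesothelial genes were mostly not called. Of 8 platelet genes 1 fell (Itgb3, -0.36) and 0 rose, while 3, with Itgb3 among them, had an unadjusted limma p under 0.05. The summed intensity of the 8 ran from 1718 to 2173 in SF1 and from 1660.1 to 1753 in control. Of 5 red cell genes, 0 were called in either direction by limma and 1 had an unadjusted p under 0.05, with a summed intensity from 337 to 363 in SF1 and from 348 to 383 in control. Of 7 mesothelial genes, 0 were called by limma in either direction and 0 had an unadjusted p under 0.05, with a summed intensity from 4530.1 to 4769 in SF1 and from 3941 to 4356 in control. Sums of linear intensity follow the brightest genes of each list, here Wt1 (mean 2689.5 in SF1 and 2412.3 in control). No gene of these lists read 0 on any array.

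**Figure D4:**
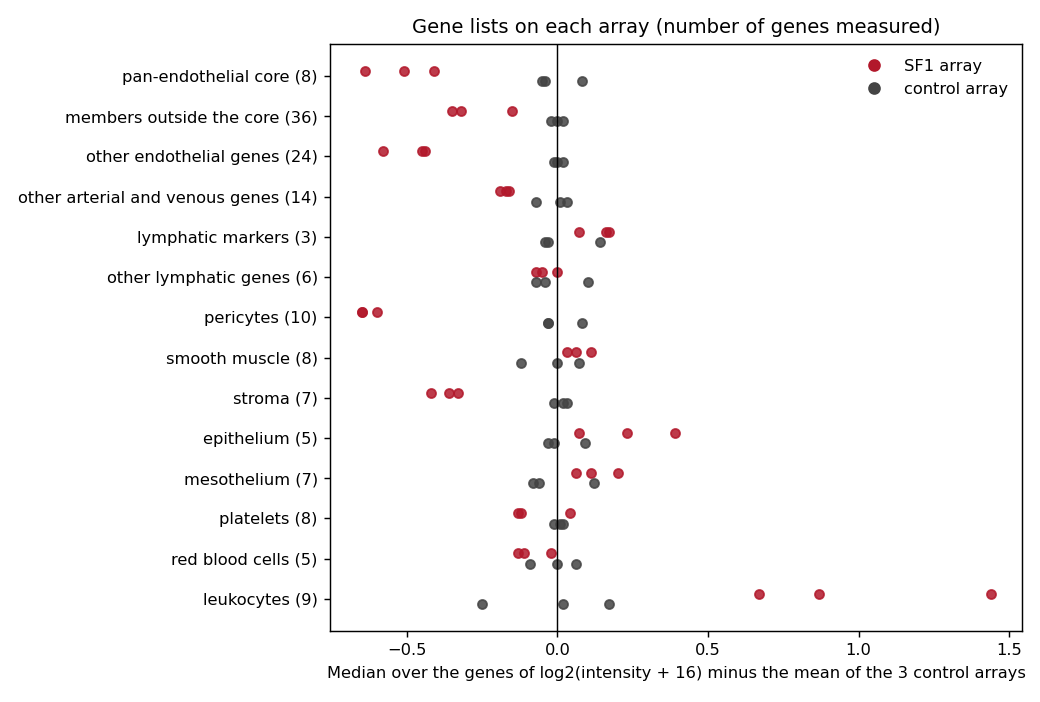
For each gene list (rows, number of genes measured in brackets) the median over its genes of log2(intensity + 16), minus the mean of the control arrays, is drawn for each SF1 array (red, upper) and control array (grey, lower). The pan-endothelial, other endothelial and pericyte lists lie below 0 on all SF1 arrays, at -0.41 or lower, the lymphatic lists lie between -0.07 and 0.17 on SF1 arrays, and leukocytes lie between 0.67 and 1.44.

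Agreement between probe sets was partial. Of the 24 genes that fell, 13 had no other probe set, 5 had another probe set that was called lower, and 6 had others of which none was called. Those 6 were Cdh5, Clec14a, Calcrl, Sox7, Erg and Notch4, and their other probe sets were all below the median brightness of the array. The probe sets that represent Rasip1, Tie1, Sele and Prox1 were below that median too. Of the 24 falls, 17 kept their call in all 6 fits with an array left out, and 16 kept it in every fit at an adjusted p under 0.05.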

How the data were processed

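Total RNA of uterine horns was hybridised to 1-colour Affymetrix GeneChip mouse arrays, per the labels' protocols. The authors deposited 1 intensity per probe set and array, linear and between 1 and 25324.74. Their background correction, normalization and summarization are not given in the sources used here. Depth has no counterpart on arrays, where the number of arrays limits the precision. Labels describe separate pools of 2 uteri, but not whether pools were processed together.

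Of 45101 probe sets, 64 Affymetrix controls were set aside and 45037 were tested. The platform annotation gave 34945 of these 1 symbol, 932 several and 9160 none. Among the 932, 2 probe sets shared by Ramp2 and a neighbouring gene were not used for Ramp2. The fit ran in limma 3.58.1 (lmFit, then eBayes, R 4.3.3) on log2 of the deposited intensity + 16. Benjamini-Hochberg adjustment covered every tested probe set, and a call needed an adjusted p under 0.05. Every adjusted p-value is from limma. Fold changes on this scale understate changes of dim genes. A second fit subtracted the array mean of 8 pan-endothelial genes. The fit was tested on simulated arrays. Tables and plots used Python 3.11.15, pandas 2.3.3 and matplotlib 3.10.9.

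The endothelial genes, the role groups and the comparison lists were chosen with earlier results of these data known. Values on each array are given for the called genes with the largest changes in each role group. Pecam1, Ets1, Vwf and the lymphatic markers were added after their values were seen. Alternatives were a replicate block, leaving out each array, array weights, a trended robust prior, quantile normalization, median centring, brighter probe sets only, pseudocounts of 64 and 1, probe sets averaged per gene, an added fold of 1.5, and a threshold of 0.01. Protein sequences were not analysed here.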

Additional observations from a re-analysis of the deposited data

How the results depend on the processing

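No endothelial gene changed the sign of a call under any alternative. The 24 falls numbered 17 to 21 when 1 array was left out, 12 with a fold of at least 1.5 in addition, 15 at an adjusted p under 0.01 and 18 after median centring, and the single rise 0 to 1 with 1 array left out and 0 at an adjusted p under 0.01. Relative to the pan-endothelial genes, the 4 lower genes numbered 4 to 5 with 1 array left out, 7 with array weights and 1 with the added fold, and the 18 higher genes 12 to 20, 6 with the added fold and 11 at an adjusted p under 0.01. The 14 falls of other endothelial genes numbered 13 to 15 with 1 array left out and 8 with the added fold. The 5 arterial and venous falls numbered 2 after quantile normalization, median centring, with a pseudocount of 1, at an adjusted p under 0.01 and in every fit with 1 array left out, 3 with the replicate block and 0 with the added fold, and the rise 1 to 2. Leukocyte rises, 8, numbered 6 to 8 with 1 array left out, and 5 at an adjusted p under 0.01 or with the replicate block. Stricter rules can only lower counts, by construction. With 1 array left out some counts fell and others rose, and the cause of these and other shifts was not tested. Replicate numbers did not pair the arrays (correlations of deviations -0.034, -0.159 and -0.198 over 11648 genes, with 0 of 3 SF1 arrays closest to their own number), and with that block 19 endothelial genes fell and 1 rose. The median log2 change of the 44 genes ran from -0.40 to -0.27 over the alternatives, against -0.06 to 0.00 for all genes. With 3 arrays a group, changes smaller than the intervals given beside the genes cannot be told from none.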
